A study of Mus musculus with 18 samples.

Results

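The regions described here are 691 sites bound by GATA6 in differentiating mouse embryonic stem (ES) cells, out of 42403 GATA6-bound regions in all (1.63%). They were selected on the classes that the authors gave each region. GATA6 binding was Late, SOX17 was bound, no peak was called for OCT4, SOX2 or ESRRB, the pluripotency transcription factors (PTFs), and the histone marks of untreated ES cells placed the region in constitutive heterochromatin. The 691 regions (members below) made up 4.85% of the 14243 Late regions, 11.2% of the 6144 Late regions with SOX17 and without PTFs, and 16.0% of the 4318 regions in constitutive heterochromatin.

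The cells were KH2 ES cells of C57BL/6 x 129/Sv background carrying a doxycycline (Dox) inducible Gata6 cassette, grown on feeders in serum and LIF. The series has 18 MNase-seq libraries, in 6 groups of 3 replicates, from untreated cells (d0) and cells given 1 µg/mL Dox for 8, 16, 24, 48 or 96 h. All groups, untreated cells included, carry the cassette, and the Dox-treated cells express GATA6 from it and differentiate towards primitive endoderm (PrE). No MNase value was analysed here. The values below come from the deposited table of GATA6 regions, which holds the authors' means of chromatin immunoprecipitation (ChIP-seq) and ATAC-seq signal at each time point without the single libraries, so the table gives neither the depth behind a single value nor the spread between replicates. The study states only an average depth over its ChIP-seq libraries.

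GATA6 is a zinc finger transcription factor that directs the inner cell mass towards PrE, the extra-embryonic layer that lines the yolk sac. SOX17 is an HMG box transcription factor that follows GATA6 in this lineage. Constitutive heterochromatin is compacted chromatin carrying trimethylated lysine 9 of histone H3 (H3K9me3), which silences repeats and lineage-inappropriate genes, whereas facultative heterochromatin carries H3K27me3, deposited by Polycomb complexes. Both GATA and SOX proteins can engage their motifs in closed chromatin. The members were set beside 3 groups of Late regions without PTFs, each differing from them in 1 class: 2044 SOX17-bound regions in facultative heterochromatin, 1541 SOX17-bound regions in naive chromatin (low in all marks), and 955 regions in constitutive heterochromatin without SOX17.

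The 5 members printed next had the highest summed scores of their best GATA6 and best SOX17 motif, among the 293 members with both motifs starting within 100 bp of the GATA6 summit less 10 of these, all on 1 chromosome that was left out of this choice. They show what a strong pair of motifs looks like in these regions. Sequences are from the plus strand of GRCm38, from 10 bp before the first motif to 10 bp after the second, and the capitals mark both motifs.
chr15:10877717-10877871: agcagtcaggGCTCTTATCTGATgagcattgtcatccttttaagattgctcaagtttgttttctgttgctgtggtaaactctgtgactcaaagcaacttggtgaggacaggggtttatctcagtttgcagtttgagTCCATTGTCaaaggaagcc
chr13:36798449-36798501: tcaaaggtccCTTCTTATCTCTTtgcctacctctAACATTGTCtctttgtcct
chr13:43971779-43971903: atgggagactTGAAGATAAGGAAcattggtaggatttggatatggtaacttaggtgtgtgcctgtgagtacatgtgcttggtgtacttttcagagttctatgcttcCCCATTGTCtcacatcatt
chr8:74778380-74778571: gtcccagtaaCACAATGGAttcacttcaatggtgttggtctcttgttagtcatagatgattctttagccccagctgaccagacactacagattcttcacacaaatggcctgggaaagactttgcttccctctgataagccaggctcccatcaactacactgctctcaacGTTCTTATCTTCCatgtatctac
chr16:12195327-12195505: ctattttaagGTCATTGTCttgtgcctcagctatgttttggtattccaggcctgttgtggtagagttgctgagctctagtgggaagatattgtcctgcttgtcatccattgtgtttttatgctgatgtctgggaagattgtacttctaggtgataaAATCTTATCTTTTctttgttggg

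In these 5 members the GATA6 and SOX17 motifs were separated by 113, 11, 83, 150 and 137 bp, in the order printed. GATA6 scores were 14.1, 14.6, 13.2, 14.2 and 13.5, and SOX17 scores were 12.3, 11.5, 12.8, 11.6 and 12.2 (log-odds match scores of the authors' motif search). The first 3 sites were intergenic, 74.6 kb from the start of C1qtnf3, 63.3 kb from Nrn1 and 187 kb from Cd83, and those near C1qtnf3 and Cd83 were repeat-masked at the summit. The fourth lay in an intron of Gm11033 and the last in an intron of Shisa9. The GATA6 course was not the same at all 5 of these sites, whose values carry no replicates. At the site near C1qtnf3, GATA6 signal went from 0.933 RPM (reads in the region after scaling to library size) at 8 h to 0.816 at 48 h and 3.49 at 96 h. In Shisa9 it went from 0.499 at 8 h to 1.33 at 16 h and 1.07 at 96 h.

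The selection on histone marks is visible in the values. Median H3K9me3, on the linear scale of the table, which corrects for sequencing depth and for the length of the region, was 1.05 in members (quartiles 0.927 and 1.26, range 0.754 to 6.56). It was 0.637 in facultative, 0.511 in naive, 1.05 in SOX17-unbound constitutive regions and 0.606 over all regions. Only 5 of the 2044 facultative and 5 of the 1541 naive regions were above the member median, while no member was at or below the median of either group. Members below the upper quartile spanned 0.754 to 1.26, and those above it formed a tail from 1.26 to 6.56. Median H3K27me3 was 0.639 in members, between 0.856 in facultative and 0.435 in naive regions. Active marks were not lowest in members: median H3K27ac, a mark of active enhancers, was 0.772, against 0.649 in facultative, 0.433 in naive and 0.894 over all regions.

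**Figure D1:**
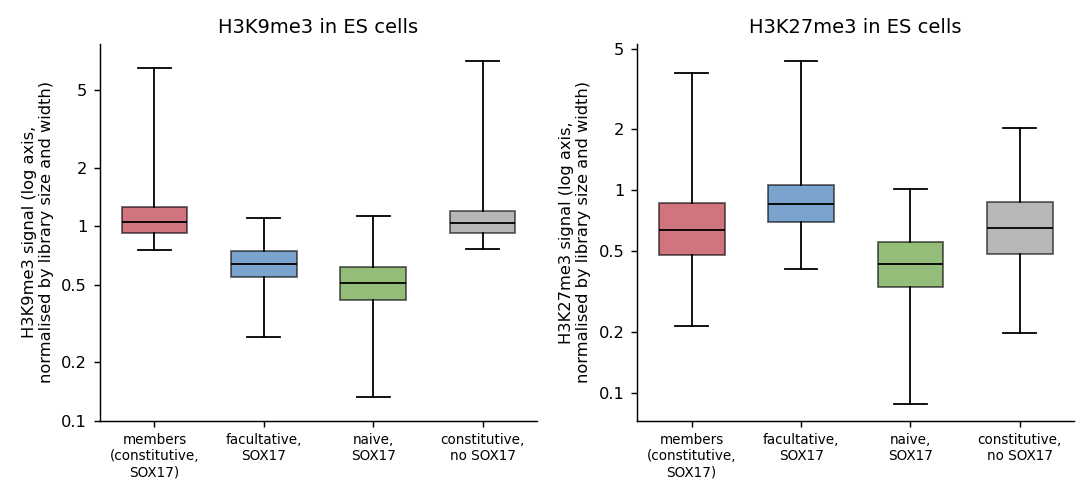
H3K9me3 (left) and H3K27me3 (right) in untreated ES cells, on log axes, in members and in the 3 compared groups; boxes show quartiles and medians over regions and whiskers the full range. The members, selected on these marks, have a median H3K9me3 of 1.05 with a tail to 6.56, and SOX17-unbound constitutive regions have the same median.

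The members with the highest H3K9me3 were 2 sites 0.955 kb apart in an intron of Zfp462, a zinc finger gene (6.56 and 6.09), and 1 in an exon of D10Wsu102e (6.29). Their ATAC signal went from 0.0292 to 0.127, from 0.0244 to 0.38 and from 0.0324 to 0.147 RPM between d0 and 96 h. The members with the lowest H3K9me3 lay in introns of Gm14064 (0.754) and Pus10 (0.777) and within 1 kb of a transcript start in Ttc3 (0.761). GATA6 signal at 96 h, not divided by width, was 3.08, 3.07 and 2.21 RPM at the first set and 1.20, 1.29 and 1.67 at the second. The regions were 532, 492 and 399 bp wide in the first set and 229, 392 and 328 bp in the second. Per kb, H3K9me3 had little relation with signal at 96 h across all 691 members: Spearman's rho was 0.013 with GATA6, 0.017 with SOX17 and 0.069 with ATAC. From the lowest to the highest quartile group of H3K9me3, the median ATAC ratio of 96 h to d0 was 3.86, 3.77, 4.06 and 4.52. These points share libraries and mapping, and the coefficients are descriptions across regions.

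GATA6 arrived late at the members, as the selection required. Over members, the median GATA6 signal (authors' means, in RPM) was 0.348 at 8 h, 0.518 at 16 h, 0.557 at 24 h, 0.633 at 48 h and 1.67 at 96 h. In 640 of the 691 members (92.6%) the highest value was at 96 h. It was at 48 h in 17 members, at 24 h in 11, at 16 h in 17 and at 8 h in 6. Between 48 and 96 h GATA6 more than doubled in 520 members (75.3%), against 22.4% of all regions, a contrast that the selection on GATA6 signal used.

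SOX17, on whose peaks the members were also selected, had medians of 0.295 at d0, 0.306 at 8 h, 0.548 at 24 h, 0.71 at 48 h and 2.04 at 96 h. The median ratio of 96 h to d0 was 6.99, and SOX17 was higher at 96 h than at d0 in all 691 members. At 24 h it had more than doubled over d0 in 269 members (38.9%), near the 35.7% of all regions, and at 48 h in 417 (60.3%), against 42.8% of all regions. The value at 96 h was the highest in 666 members (96.4%). GATA6 and SOX17 signal per kb at 96 h had a Spearman's rho of 0.6 across members, with both also related to input (0.39 and 0.42).

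Accessibility, which did not enter the selection directly, was low at d0 and rose mostly after 24 h. Median ATAC signal in fragments under 100 bp was 0.0336 RPM at d0, 0.0377 at 8 h, 0.0345 at 16 h, 0.0426 at 24 h, 0.0922 at 48 h and 0.132 at 96 h. The value at 96 h was above d0 in 681 members (98.6%) and more than double in 601 (87.0%), against 41.2% of all regions. At 24 h it was more than double in 51 members (7.38%), below the 12.1% of all regions. The median ratio of 96 h to d0 was 4.05 in members, 4.44 in facultative and 4.44 in naive regions, and 2.08 in SOX17-unbound constitutive regions. Per kb of region, the median at 96 h was 0.363 in members and 0.187 in SOX17-unbound constitutive regions, from 0.0892 and 0.087 at d0. These group differences were not tested, because no column carries a replicate. ATAC per kb at 96 h was also higher at members of higher GC content (Spearman's rho of 0.45), as it already was at d0 (0.43), and the part of base composition in these levels was not tested.

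**Figure D2:**
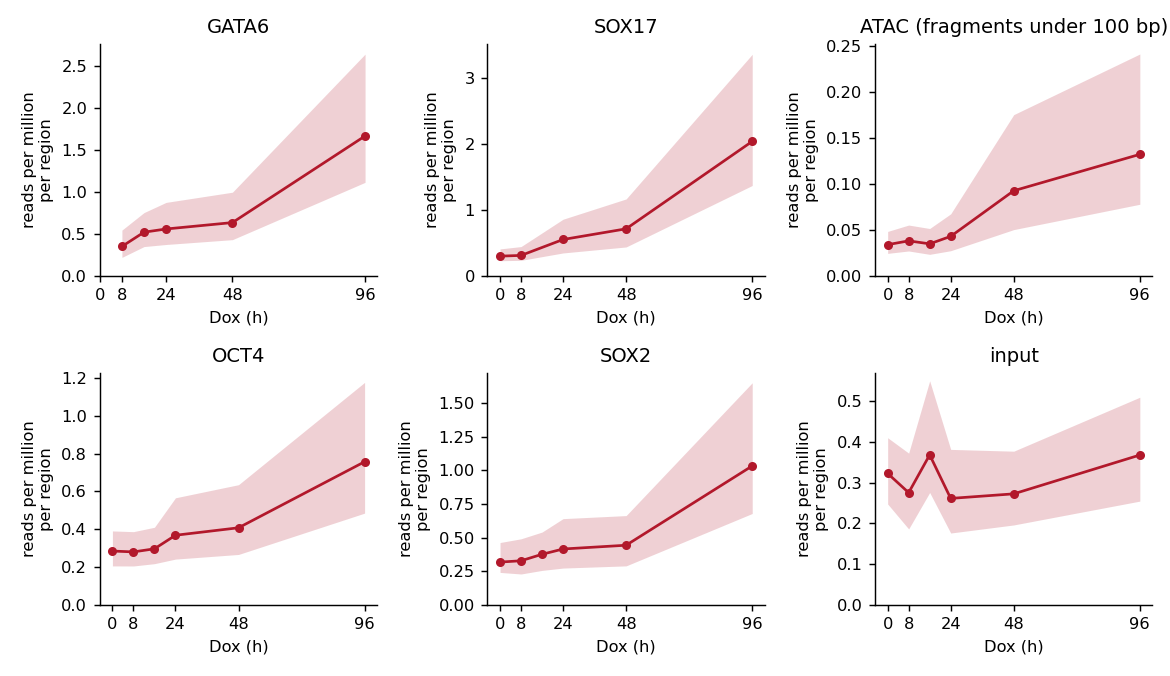
Signal in the 691 members against hours of Dox for GATA6, SOX17, ATAC, OCT4, SOX2 and input, in RPM; points are medians over members of the authors' means, and bands span the quartiles. GATA6 and SOX17 medians reach 1.67 and 2.04 at 96 h, and ATAC rises from 0.0426 at 24 h to 0.132 at 96 h, while input stays between 0.261 and 0.368.

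OCT4 and SOX2, which maintain pluripotency and have a joint composite motif, had no called peak in the members by selection, yet their signal was not flat. Median OCT4 signal was 0.284 RPM at d0, 0.407 at 48 h and 0.756 at 96 h, with more than a doubling from d0 to 96 h in 501 members (72.5%), against 27.8% of all regions. Median SOX2 was 0.318 at d0, 0.443 at 48 h and 1.03 at 96 h, with more than a doubling in 560 members (81.0%), against 30.8% of all regions. ESRRB, a nuclear receptor of the same network, had medians of 0.308 at d0 and 0.323 at 96 h and more than doubled in 42 members (6.08%), against 1.63% of all regions. Input had medians of 0.322 and 0.367 and more than doubled in 55 (7.96%), against 3.83% of all regions. The median OCT4 ratio of 96 h to d0 was 2.64 in members, 3.12 in facultative, 3.24 in naive and 1.54 in SOX17-unbound constitutive regions, and the SOX2 ratios were 3.27, 4.07, 4.50 and 1.85. Across members, SOX2 and SOX17 signal per kb at 96 h had a Spearman's rho of 0.67, and OCT4 and SOX17 of 0.48.

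The next question was whether the sequence under the summit differs from its surroundings and from like regions. A window of 100 bp to each side of the summit held a GATA6 motif in 516 of 691 members (74.7%, 95% Wilson interval 71.3 to 77.8), against 445 of 1322 windows 3 kb away that overlapped no GATA6 region (33.7%, 31.2 to 36.3). A SOX17 motif was present in 481 member windows (69.6%, 66.1 to 72.9) and in 27.2% of flanking windows (24.8 to 29.6). For the OCT4:SOX2 motif the shares were 36.3% (32.8 to 39.98) and 35.02% (32.5 to 37.6), and for the ESRRB motif 14.0% (11.6 to 16.8) and 11.95% (10.3 to 13.8). Over all GATA6 regions, summit windows held a GATA6 motif in 77.1%, a SOX17 motif in 43.1%, an OCT4:SOX2 motif in 41.8% and an ESRRB motif in 14.9%. The GATA6 and SOX17 motifs were thus more frequent at the summit than in the flanks, while the intervals of the other 2 overlapped those of the flanks. These intervals, here and below, cover counting error among regions only.

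**Figure D3:**
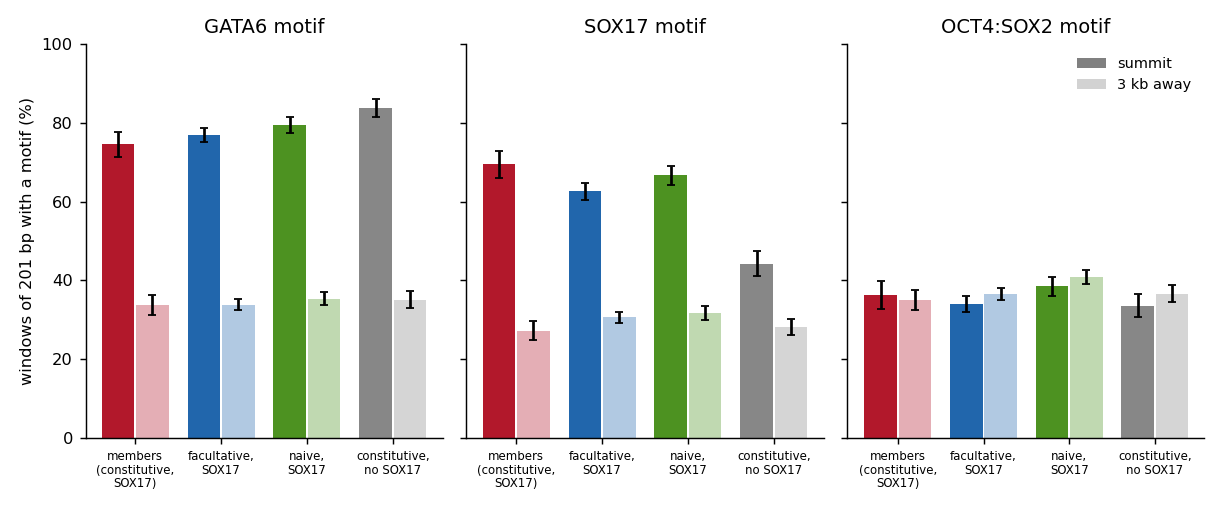
Percentage of windows of 100 bp to each side with a GATA6, SOX17 or OCT4:SOX2 motif at the summit (dark bars) and 3 kb to either side (pale bars) in members and in the 3 compared groups; error bars are 95% Wilson intervals. SOX17 motifs reach 69.6% at member summits and 44.3% at SOX17-unbound constitutive summits, while flanks lie between 27.2% and 31.7%.

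Counting any motif in the window, the SOX17 motif was more frequent in members than in 2 of the 3 groups. It was present in 62.6% of facultative (log2 odds ratio of members 0.45, 95% Woolf interval 0.18 to 0.72, two-sided Fisher's exact test, adjusted p = 0.00229, direction shared by 15 of 19 chromosomes) and 44.3% of SOX17-unbound constitutive windows (1.53, 1.23 to 1.82, adjusted p = 1.63e-23, 19 of 19 chromosomes). The first difference did not pass in windows of 50 bp to each side (0.23, Fisher's exact test, adjusted p = 0.169). Against the 66.6% of naive windows the difference did not pass (0.20, -0.08 to 0.48, Fisher's exact test, adjusted p = 0.280), and its sign turned within bins of region width (-0.10, Mantel-Haenszel estimate). When only the best motif of a region was counted, if it started within 100 bp of the summit, members were above naive regions too (0.75, Fisher's exact test, adjusted p = 1.01e-07). A wider region can have its best motif farther from the summit, and this count, here and below, was not repeated within bins of width. Over the whole region, a SOX17 motif was present in 80.8% of members and 87.3% of naive regions.

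The GATA6 motif went the other way. It was found in 83.9% of SOX17-unbound constitutive windows, more than in members (log2 odds ratio -0.82, -1.17 to -0.47, Fisher's exact test, adjusted p = 1.90e-05, 16 of 19 chromosomes). Naive windows held it in 79.5% (-0.39, -0.70 to -0.09, Fisher's exact test, adjusted p = 0.0289, 13 of 19 chromosomes). That difference did not pass within bins of region width (-0.23, Mantel-Haenszel test, adjusted p = 0.359), nor by Fisher's exact test in 1 region per 50 kb (-0.30, adjusted p = 0.171) or in windows of 50 bp to each side (-0.30, adjusted p = 0.0772), and it passed in the opposite direction when only the best motif of the region was counted (0.46, Fisher's exact test, adjusted p = 0.00114). Over the whole region, the GATA6 motif was in 84.9% of members and 93.7% of naive regions. Facultative windows held it in 76.9% (-0.18, -0.46 to 0.11, Fisher's exact test, adjusted p = 0.348). The OCT4:SOX2 motif did not pass against any of the 3 groups, whose shares were 33.6% to 38.5%.

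Both motifs together were in 354 member windows (51.2%, against 32.1% of all regions), the GATA6 motif alone in 162 (23.4%), the SOX17 motif alone in 127 (18.4%) and neither in 48 (6.95%). Both were present in 36.5% of SOX17-unbound constitutive windows, fewer than in members (log2 odds ratio 0.87, 0.58 to 1.15, Fisher's exact test, adjusted p = 1.48e-08, 18 of 19 chromosomes), and in 47.7% of facultative and 52.2% of naive windows, where the difference did not pass (0.21, adjusted p = 0.203, and -0.05, adjusted p = 0.735). Counting only best motifs near the summit, both of these differences passed with more in members, the naive one with its sign turned (0.59, adjusted p = 1.06e-05, and 0.85, adjusted p = 4.87e-09, Fisher's exact test). The binding signal of members, on which they were selected, differed modestly by these classes. Median SOX17 signal per kb at 96 h was 6.88 RPM with the SOX17 motif alone, 5.73 with both, 4.50 with the GATA6 motif alone and 5.03 with neither. Median GATA6 signal was 4.38, 4.56, 4.95 and 4.46 in the same order. The 48 members with neither motif thus had GATA6 signal within the range of the other classes.

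Best motif scores were compared over chromosomes. The best GATA6 motif of members scored 9.66 on average (SD 2.29, 587 members with a motif), against 10.1 in SOX17-unbound constitutive regions (difference -0.40, jackknife SE 0.105, exact sign-flip permutation test over 19 chromosomes, adjusted p = 0.00495, 16 of 19 chromosomes). It was also below the 10.2 of naive (-0.55, SE 0.119, exact permutation test, adjusted p = 0.00164) and the 9.91 of facultative regions (-0.25, SE 0.0849, adjusted p = 0.0186, exact permutation test). The latter 2 differences did not pass within bins of region width (-0.26 and -0.17) or for the mean score of all motifs (-0.04 and -0.03). The best SOX17 motif scored 10.0 (SD 1.58, 558 members), against 9.74 in SOX17-unbound constitutive regions (0.27, SE 0.078, exact permutation test, adjusted p = 0.00836, and 0.22 with adjusted p = 0.0652 within bins of width). Against facultative and naive regions the SOX17 differences were -0.09 and -0.18 and did not pass (exact permutation test, adjusted p = 0.189 and 0.0550).

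Among the best GATA6 motifs of members, 396 of 587 (67.5%) held the word GATAA on either strand, against 70.1% in facultative, 74.4% in naive, 76.0% in SOX17-unbound constitutive and 76.2% in all regions. The word ATTGT was in 501 of 558 best SOX17 motifs (89.8%), close to the 87.7% of facultative and 90.9% of naive regions, with 80.2% in SOX17-unbound constitutive and 81.7% in all regions. The highest-scoring sequence of the GATA6 matrix was the best motif of no member, and that of the SOX17 matrix of 10. The commonest GATA6 motif was the best in 1.04% of members with a full-length motif, against 0.0426% over all regions. Of its 6 members, 5 were repeat-masked at the summit. The commonest SOX17 motif was the best in 3.94% of members with one, against 1.72% over all regions. Of its 22 members, 10 were masked, where 19.0% of all members were. These motifs are printed below with the strand turned to that of the matrix, and capitals mark every base because the whole run is motif.
Highest-scoring GATA6 sequence: GGGAGATAAGAAA
Commonest GATA6 motif in members (6 of 578 full-length motifs): CAGAGATAGGATA
Highest-scoring SOX17 sequence: CCCATTGTC
Commonest SOX17 motif in members (22 of 558): TTCATTGTT

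Best motifs lay close to the summit. The centre of the best GATA6 motif was within 50 bp of it in 309 of 587 members (52.6%) and that of the best SOX17 motif in 285 of 558 (51.1%), with median distances of 47 and 48.5 bp. The medians were 50 and 60 bp in facultative and 66 and 78.5 bp in naive regions. In SOX17-unbound constitutive regions they were 35 and 63 bp, and over all regions 51 and 106 bp. These distances were not adjusted for region width. Of the 476 members with both motifs in the region, the GATA6 motif was the nearer in 244 (51.3%), close to the 52.4% of facultative and 54.7% of naive regions, with 65.5% in SOX17-unbound constitutive regions, and the motifs were on the same strand in 213 (44.7%). The median distance between the motif centres was 75.5 bp (quartiles 33 and 134), with 64 pairs (13.4%) within 20 bp and 23 overlapping pairs.

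**Figure D4:**
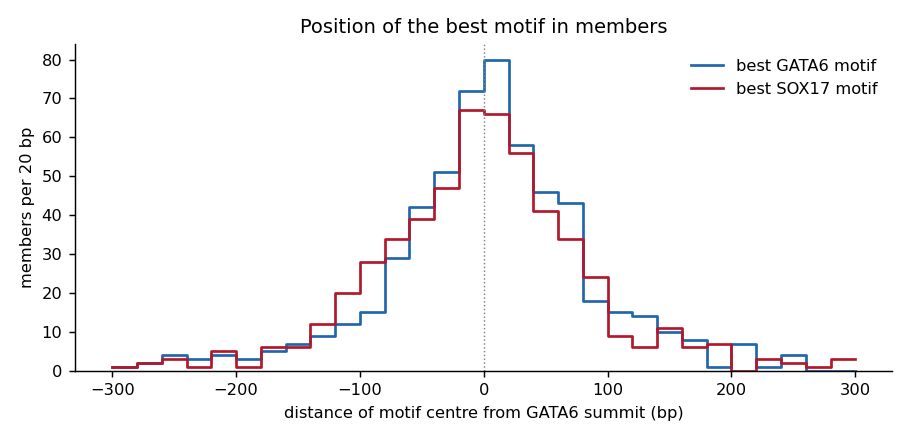
Number of members per 20 bp of distance between the centre of the best GATA6 (blue) or best SOX17 (red) motif and the GATA6 summit. Both curves are highest at the summit, with 309 GATA6 and 285 SOX17 motif centres within 50 bp.

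Members were narrower than the other SOX17-bound groups. Their mean width was 406 bp (SD 169, range 182 to 1824), against 505 bp in facultative (difference -99.1, jackknife SE 10.2, exact sign-flip permutation test, adjusted p = 3.43e-05, 18 of 19 chromosomes) and 630 bp in naive regions (-224, SE 15.5, exact permutation test, adjusted p = 1.53e-05, 19 of 19). SOX17-unbound constitutive regions had a mean of 315 bp (90.7, SE 8.47, exact permutation test, adjusted p = 1.53e-05, 19 of 19), and 3.81e-06 is the smallest p-value this test can give before adjustment. A wide region leaves more room for a motif and more reads for a test, so values within 10 bins of width are given wherever they change a result. The widest member (1824 bp, 17.1 kb from the start of Ctsh) had GATA6 signal of 10.0 and SOX17 signal of 10.2 RPM at 96 h. GC content of the summit window was 43.4% (SD 4.48), above the 40.9% of naive regions (2.52 percentage points, SE 0.224, exact permutation test, adjusted p = 1.53e-05). It was below the 44.0% of facultative regions by -0.569 points (exact permutation test, adjusted p = 0.0120), a difference that did not pass within bins of width (-0.253).

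Repeat-masked bases made up a median of 11.4% of the summit window in members (quartiles 0 and 25.9%), against 10.9% over all regions. The summit base was repeat-masked in 131 members (19.0%, 16.2 to 22.05), against 15.8% of all regions. At the centre of the flanking windows the share was higher (30.2%, 27.8 to 32.7). The compared groups had the same contrast, with flank shares of 26.2% in facultative, 28.7% in naive and 27.4% in SOX17-unbound constitutive regions. The authors kept only reads above a mapping-quality threshold, a filter that the flanking windows did not pass through. Its part in this contrast was not tested. The member share was above the 12.7% of facultative (log2 odds ratio 0.69, 0.36 to 1.02, adjusted p = 0.000211, 15 of 19 chromosomes) and the 12.7% of SOX17-unbound constitutive regions (0.69, 0.30 to 1.08, adjusted p = 0.00141, 16 of 19), by two-sided Fisher's exact tests. Against the 16.9% of naive regions it did not pass (0.20, Fisher's exact test, adjusted p = 0.348), with the opposite sign within bins of width (-0.17). Masked members had a median H3K9me3 of 1.10 and the others of 1.05, and the masked share was 15.6%, 19.1%, 17.4% and 23.7% from the lowest to the highest quartile group of H3K9me3.

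Copies of the same sequence were counted through shared runs of 31 bases. The summit windows of 71 members (10.3%, 8.23 to 12.8) shared such a run with another GATA6 region, against 4.94% of facultative (4.08 to 5.97), 10.3% of naive (8.84 to 11.9), 5.24% of SOX17-unbound constitutive (3.99 to 6.84) and 10.1% of all regions. Within the members, 30 regions fell into 8 families, the largest of 10 members on 8 chromosomes with a median H3K9me3 of 1.30. In 1 family of 3, chosen after its values were seen, all members had the same best GATA6 motif, a sequence that was the best motif of no other GATA6 region. Their sequences follow, 40 bp to each side of that motif, with the GATA6 motif in capitals on its own strand (plus for the first, minus for the others).
chr5:145415514-145415606: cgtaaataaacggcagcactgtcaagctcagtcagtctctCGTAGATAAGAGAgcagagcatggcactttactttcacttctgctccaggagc
chr10:79417317-79417409: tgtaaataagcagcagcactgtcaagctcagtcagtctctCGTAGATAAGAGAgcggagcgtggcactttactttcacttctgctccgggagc
chr19:8518478-8518570: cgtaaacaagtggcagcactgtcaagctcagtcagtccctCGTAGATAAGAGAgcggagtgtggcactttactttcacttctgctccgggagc

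Of the 93 bases, 85 to 87 were the same in each pair of copies. The copies lay 54.2 kb from the start of Cyp3a16, within 1 kb of a transcript start in Gm47015, and in an intron of Gm8189, and none was repeat-masked at the summit. Their H3K9me3 values were 1.20, 2.20 and 1.52, and GATA6 signal went from 0.166, 0.565 and 0.276 RPM at 8 h to 1.16, 3.73 and 1.29 at 96 h. The copy near Gm47015 had the highest value of both. Reads from near-identical copies can be lost to the authors' mapping-quality filter or placed at the wrong copy, so the levels of single copies are uncertain.

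Members were spread over all 19 autosomes, from 19 on chromosome 19 to 64 on chromosome 8. Chromosome 8 also had the highest share of its GATA6 regions in the set (2.91% of 2199). None of the 1238 regions on chromosome X was a member, where 17 were in constitutive heterochromatin. Summits were intronic in 325 members (47.0%), intergenic in 300 (43.4%), within 1 kb of a transcript start in 42 (6.08%) and otherwise exonic in 24 (3.47%). Over all GATA6 regions these were 46.0%, 38.5%, 12.4% and 3.11%. Intergenic and promoter shares did not pass the test against any of the 3 groups (adjusted p from 0.0738 to 1, two-sided Fisher's exact test). The median distance to the start of a protein-coding gene was 41.3 kb (quartiles 15.7 and 88.3). Members were mostly apart from each other, with a median of 901 kb to the next member, 61 within 50 kb of another, and 1 run of 3 near Taf8 and Ccnd3. Yet 360 members had some other GATA6 region within 10 kb.

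Chromatin at d0 was closed at 641 members (92.8%, 90.6 to 94.5) and moderate at 50 by the authors' ATAC class, and accessible at 0 of 691 (upper Wilson limit 0.553%). Over all GATA6 regions, 61.3% were closed, 31.2% moderate and 7.43% accessible. Closed regions made up 98.0% of facultative (log2 odds ratio of members -1.93, -2.54 to -1.32, Fisher's exact test, adjusted p = 4.46e-09, 16 of 19 chromosomes) and 99.2% of naive regions (-3.20, -4.09 to -2.31, adjusted p = 8.28e-15, 17 of 19), so moderate chromatin was more frequent in members. In SOX17-unbound constitutive regions 93.8% were closed, which did not differ past the threshold (-0.24, -0.81 to 0.32, Fisher's exact test, adjusted p = 0.475). DNase signal was deposited beside the histone marks, and whether it entered the clustering of states is not given in the sources used here. The 50 moderate members had a median ATAC ratio of 96 h to d0 of 2.52, against 4.21 in closed members, and median SOX17 signal per kb at 96 h of 6.97 against 5.47. A GATA6 motif was in the window of 32 moderate members (64.0%) and 484 closed ones (75.5%), and a SOX17 motif in 40 (80.0%) and 441 (68.8%).

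In a separate experiment the authors knocked down Oct4 for 48 h together with Dox and classed the change in GATA6 binding. GATA6 binding was raised at 170 members (24.6%, 21.5 to 27.9), where 8.57% of all 42403 regions were raised, and lowered at 3 (0.434%), where 6.25% of all were lowered. The lowered share was as small in facultative (0.636%), naive (0.519%) and SOX17-unbound constitutive regions (0.628%). In the time course, median GATA6 signal at 48 h was 0.633 RPM in members and 1.13 over all regions. The part of signal level in these shares was not tested. The raised share was lower than in naive regions (45.2%, log2 odds ratio of members -1.34, -1.62 to -1.05, adjusted p = 7.22e-20, 19 of 19 chromosomes) and higher than in SOX17-unbound constitutive regions (3.14%, 3.33, 2.75 to 3.91, adjusted p = 2.43e-39, 19 of 19), by two-sided Fisher's exact tests. It was also below the 32.9% of facultative regions (-0.59, Fisher's exact test, adjusted p = 0.000137), but not within bins of region width (-0.17, Mantel-Haenszel test, adjusted p = 0.403). Within the members the raised share went from 12.1% of the narrowest quartile group to 40.5% of the widest. Raised members had a median width of 436.5 bp against 340 bp of unchanged ones, median SOX17 signal per kb at 96 h of 6.91 against 5.25, and a median ATAC ratio of 4.69 against 3.87. Both values also rose with width, from 5.12 in the narrowest to 6.56 in the widest quartile group for SOX17 and from 3.43 to 4.61 for ATAC. They were not compared within bins of width. An OCT4:SOX2 motif was in the window of 72 of the 170 raised members (42.4%) and 177 of the 518 unchanged members (34.2%).

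The 3 lowered members lay 30.5 kb from the start of Grem1, a secreted BMP antagonist, and in introns of Myo1f and Psd3. Each had both motifs in the window. Their OCT4 signal went from 0.243, 0.397 and 0.316 RPM at d0 to 0.919, 1.35 and 0.956 at 48 h, all above the upper quartile of members at that time (0.635). Their GATA6 signal at 48 h was 0.983, 1.92 and 1.62, against a median of 0.633 in members. In Myo1f, both GATA6 (1.13) and SOX17 (2.41) were lower at 96 h than at 48 h (1.92 and 2.91).

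**Figure D5:**
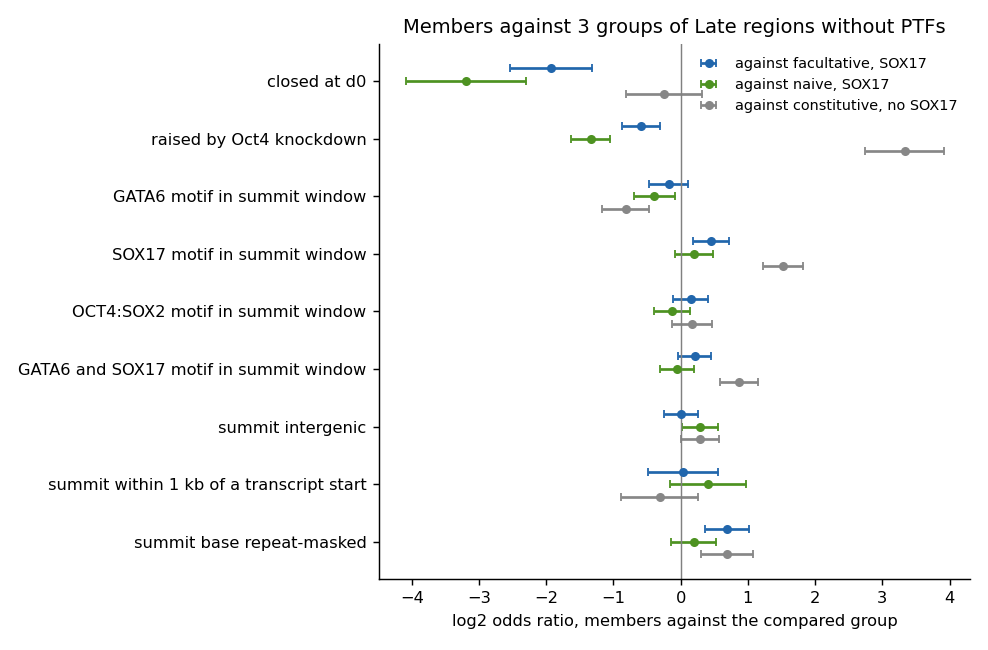
Log2 odds ratio of each property in members against facultative SOX17-bound (blue), naive SOX17-bound (green) and constitutive SOX17-unbound (grey) Late regions; bars are 95% Woolf intervals and the vertical line marks equal odds. Values right of the line are more frequent in members, with the widest separation for raised GATA6 binding after Oct4 knockdown (3.33 against constitutive SOX17-unbound and -1.34 against naive regions). No value is adjusted for region width.

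Of 21992 protein-coding genes, 1420 (6.46%) had a member within 100 kb of their start. The short gene lists of the lineage that follow were not tested against this share. Of 9 PrE transcription factor genes, 1 had such a member, and of 8 PrE receptor and endocytosis genes, 1. The counts were 4 of 14 genes of basement membrane and secretion (Col4a1 and Col4a2 through the same member), 2 of 12 visceral and parietal endoderm products, 1 of 13 pluripotency genes and 0 of 10 germline genes that ES cells silence. Nearly all of these genes had some GATA6 region within 100 kb, so the members were a small part of the binding around them. No gene expression was analysed here.

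The member in the PrE transcription factor list was 12.7 kb downstream of the start of Gata6 itself, in an exon, with H3K9me3 of 1.24, among 13 GATA6 regions within 100 kb. Its GATA6 signal was 0.377 RPM at 8 h, 1.28 at 16 h, 0.955 at 24 h, 1.36 at 48 h and 1.34 at 96 h, so most of the rise was at 16 h. SOX17 was highest at 48 h (3.35) and was 1.52 at 96 h, while ATAC stayed between 0.0332 and 0.0789. Input there was 0.373 at d0 and 0.763 at 96 h. The cells carry an inducible Gata6 transgene, and whether reads from it fall in this exon was not tested.

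Basement membrane genes had 3 members, all higher in GATA6 and SOX17 at 96 h than at 8 h. The member in an exon of Nid2, which encodes the basement membrane linker nidogen-2, lay 12.4 kb from its start and was raised by Oct4 knockdown. Its GATA6 signal went from 0.391 at 8 h to 1.73 at 48 h and 3.29 at 96 h, SOX17 from 0.269 at d0 to 6.49, and ATAC from 0.0639 to 0.346. The member 91.7 kb upstream of Lamb1, the laminin beta 1 gene, was 805 bp wide and went from 0.882 to 4.41 in GATA6 and from 0.0947 to 0.514 in ATAC. In an intron of Col4a1, 45.4 kb from the starts of Col4a1 and Col4a2, the paired genes of type IV collagen, GATA6 was 2.91 at 16 h, 1.78 at 48 h and 2.86 at 96 h, and ATAC was 0.0729 at d0 and 0.137 at 96 h.

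At the endoderm products, the member in an intron of Pde6c, 36.9 kb upstream of Rbp4, the retinol binding protein gene, had GATA6 of 0.449 at 8 h, 0.818 at 48 h and 7.84 at 96 h, with SOX17 from 0.545 to 6.90 and ATAC from 0.0475 to 0.257. Its H3K9me3 was 1.55, above the upper quartile. The member 40.6 kb upstream of Trf, the transferrin gene, had GATA6 of 0.239 at 8 h and 1.58 at 96 h. The member 84.0 kb downstream of the start of Pdgfra, a receptor tyrosine kinase of PrE, had GATA6 and SOX17 motif centres 23 and 5 bp from the summit and GATA6 of 0.855 at 8 h and 1.36 at 96 h, while its ATAC was 0.0188 and 0.0514. Klf4, a pluripotency gene, had 3 members within 100 kb, and the nearest, 9.47 kb downstream of its start, went from 0.297 to 1.30 in GATA6 and from 0.0383 to 0.0911 in ATAC. All members named with these genes were closed at d0.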

How the data were processed

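Per the study's methods, the authors aligned reads to mm10 with bowtie2 and kept those above a mapping-quality threshold. They called GATA6 peaks on merged replicates and clustered regions by k-means on input-normalised GATA6 signal. Binding of SOX17 and PTFs rests on called peaks, and the histone state on clustered public marks of ES cells. The deposited scores are RPM in each region, as the authors' mean per time point (not divided by width), mark signal corrected for depth and width, and FIMO motif scores. Of the 105 columns, 80 were used. Of the others, 13 hold signal of single libraries, other cells or the knockdown, and 12 group motif values. No column holds a library of the series.

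The members, gene lists and compared groups were chosen with earlier results of these data known. The 4 motif matrices were recovered from the deposited scores by least squares (largest residual 5.20e-05), and rescanning gave the deposited presence and best score in 100% of regions. Positions matched GRCm38, from which sequence and soft-masking were read, and summits were annotated with GENCODE M21. Shares were compared by two-sided Fisher's exact tests (27 tests) and means by exact sign-flip permutation tests over chromosomes with at least 3 regions in both groups (12 tests), and within bins of width by the Mantel-Haenszel test for shares, each family adjusted by the Benjamini-Hochberg procedure at 0.05. Regions are the units, neighbours are not independent, and p-values measure spread over regions or chromosomes, not replicates. Named regions were the nearest member within 100 kb of each listed gene start, the 5 with the highest summed motif scores (not chromosome 18), the 3 highest and 3 lowest in H3K9me3, those lowered by Oct4 knockdown, and the widest. Scripts were tested on simulated data. Tests were run with scipy 1.17.1 and statsmodels 0.14.6 under Python 3.11.15, sequences were read with pyfaidx 0.9.0.4, tables were handled with pandas 2.3.3 and numpy 2.4.6, and plots were drawn with matplotlib 3.10.9.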

Additional observations from a re-analysis of the deposited data

How the results depend on the processing

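No paired analysis was possible because no column used carries a library of the series. Of 150 repeated tests, 122 kept their direction and side of the threshold. These include 27 of 27 shares by a sign-flip test over chromosomes, where only the p-value was computed anew, so their direction could not change. Values are log2 odds ratios or differences of members, and the causes were not tested. Within 10 bins of width, 6 results no longer passed: raised by Oct4 knockdown (-0.17, facultative), GATA6 motif (-0.23, naive), GC (-0.253, facultative), GATA6 score (-0.17, facultative, and -0.26, naive) and SOX17 score (0.22, SOX17-unbound). Signs turned for the SOX17 motif (-0.10, naive) and masking (-0.17, naive). With 1 region per 50 kb, the GATA6 motif (-0.30, naive) and GC (-0.454, facultative) no longer passed, and signs turned for both motifs (0.00067, naive) and intergenic summits (-0.013, facultative). Windows of 50 bp to each side lost the GATA6 motif (-0.30, naive) and the SOX17 motif (0.23, facultative). Counting only best motifs near the summit turned the GATA6 motif (0.15, facultative, and 0.46, naive), both motifs (0.85, naive) and OCT4:SOX2 (0.20, naive, and -0.11, SOX17-unbound). Of these, the GATA6 motif and both motifs against naive regions passed in the new direction (adjusted p = 0.00114 and 4.87e-09, Fisher's exact test). It also brought both motifs (0.59, facultative) and the SOX17 motif (0.75, naive) past the threshold. These counts of best motifs were not repeated within bins of width. The mean score of all motifs lost the GATA6 score (-0.031, facultative, and -0.040, naive) and the SOX17 score (0.12, SOX17-unbound) and turned the SOX17 score against naive regions (0.073). The median brought that score past it (-0.31). GC of the whole region turned (0.231, SOX17-unbound), as did promoters at 5 kb (0.16, SOX17-unbound). Counting only accessible regions as open gave no value, since 0 members were accessible. The table gives no depth per library, and no limit from depth was computed.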
